A study of Mus musculus with 6 samples.

Results

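The beta2 leukocyte integrins are pairs of 1 shared beta chain, encoded by Itgb2 (CD18), with 1 of 4 alpha chains, encoded by Itgax (CD11c), Itgad (CD11d), Itgam (CD11b) and Itgal (CD11a). These 5 genes were taken as the family of Itgb2 and its alpha partners, matched from symbol to Ensembl identifier, and all 5 were found among the 22040 genes of the table. Itgax and Itgad were chosen by their lower counts with Rb1 in these same samples, and the others as members of the family, so the Rb1 against control values of the 5 genes are given as a description with no test. The samples were white adipose tissue of mice, 3 from animals that received ginsenoside Rb1, a steroid-like glycoside from ginseng root, by intraperitoneal injection at 14 mg/kg each day (Rb1), and 3 from animals that received saline by the same route (CTR). The sources used here do not give strain, sex, age, diet, fat depot or treatment length. Nothing in the labels states that replicates were different animals, and p-values then measure only the spread between libraries, part of which may be technical.

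Beta2 integrins occur on leukocytes and let them stick to other cells and to matrix. Each chain crosses the membrane once, and the alpha chain reaches the surface only when it is paired with CD18. CD11a with CD18 (LFA-1) is the main form on lymphocytes and binds the ICAM proteins. CD11b with CD18 (Mac-1, complement receptor 3) and CD11c with CD18 (complement receptor 4) occur on myeloid cells and bind the complement fragment iC3b and fibrinogen. CD11d with CD18 is found on subsets of tissue macrophages and binds ICAM and VCAM proteins. In fat, CD11c is widely used as a surface marker of the macrophages that gather around dying adipocytes in obesity.

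Total counts ran from 15440339 to 24501446 per sample, and the adipocyte gene Adipoq (adiponectin) stood at 2039 to 2418 CPM (the count scaled by the sample's total) with Rb1 and at 2420 to 2675 CPM in controls. CTR replicate 2 stood apart through skeletal muscle transcripts. The 10 muscle markers summed to 36.9 to 182 CPM with Rb1 and to 380 and 405 CPM in CTR replicates 1 and 3, against 28001 CPM in CTR replicate 2. Across all 14093 genes tested with edgeR's quasi-likelihood test, 1 gene was higher with Rb1 at an adjusted p under 0.05 (0.0071%) and 0 were lower (0.0%). The 1 gene was Xiap, named here after its values were seen. At an unadjusted p under 0.05 there were 565 higher (4.01%) and 1063 lower (7.54%). DESeq2 called 80 higher (0.559%) and 297 lower (2.08%) of 14313 genes. The median log2 fold change of all genes tested was 0.0069.

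Itgax, the CD11c chain, was lower with Rb1 in every sample. Its level was 5.06, 4.09 and 4.75 FPKM (the count scaled by gene length and by the sample's total, as the authors deposited it) in Rb1 replicates 1, 2 and 3, against 17.3, 13.2 and 11.7 FPKM in CTR replicates 1, 2 and 3. The highest Rb1 sample was below the lowest control sample, and the 3 Rb1 samples lay close together. Group means were 4.63 ± 0.496 FPKM with Rb1 and 14.1 ± 2.88 FPKM in controls (SD, n = 3 each). The log2 fold change from the counts was -1.55 with a standard error (SE) of 0.14, and it lay between -1.66 and -1.41 when any 1 sample was left out. Counts behind these values were 335 to 618 per Rb1 sample and 1249 to 1751 per control sample. Of all genes tested, 1.48% had a log2 fold change as low or lower. On GRCm38 the gene (ENSMUSG00000030789) spans 128129547 to 128150657 of chromosome 7, plus strand, and no other annotated gene overlaps its exons. In bulk tissue, fewer cells that express a gene and less RNA of it per cell cannot be told apart.

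Itgad, the CD11d chain, had the largest log2 fold change of the 5 subunits and the widest spread. Its level was 1.27, 4.30 and 3.67 FPKM in Rb1 replicates 1, 2 and 3, against 9.32, 14.8 and 16.8 FPKM in CTR replicates 1, 2 and 3. The groups did not overlap, and Rb1 replicate 1 was lowest of the 6 by a wide margin. Means were 3.08 ± 1.60 FPKM with Rb1 and 13.6 ± 3.87 FPKM in controls (SD, n = 3 each). The log2 fold change was -2.09 (SE 0.48), and 0.937% of all genes tested were as low or lower. Without Rb1 replicate 1 it was -1.70, and without Rb1 replicate 2 it was -2.43. Counts were 134 to 467 per Rb1 sample and 926 to 1806 per control sample. Itgad (ENSMUSG00000070369) spans 128154376 to 128223816 of chromosome 7, plus strand. It shares 70 of its 4510 annotated exon bases with Cox6a2, a respiratory chain subunit of striated muscle on the other strand, whose counts were 3 to 16 with Rb1, 22 and 34 in CTR replicates 3 and 1 and 736 in CTR replicate 2. Whether reads of Cox6a2 entered the Itgad count was not tested, and CTR replicates 1 and 3, with few Cox6a2 counts, had 926 and 1761 Itgad counts. It also shares exon bases with 3 unnamed or noncoding genes, at most 388 bases with any of them, which have no row in the table.

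Itgam, the CD11b chain, was lower by less, and its count is uncertain. Its level was 2.26, 5.36 and 3.96 FPKM in Rb1 replicates 1, 2 and 3, against 5.59, 7.86 and 7.82 FPKM in CTR replicates 1, 2 and 3. The groups did not overlap, but the highest Rb1 sample was close to the lowest control. Means were 3.86 ± 1.56 FPKM with Rb1 and 7.09 ± 1.30 FPKM in controls (SD, n = 3 each). The log2 fold change was -0.83 (SE 0.34). Without Rb1 replicate 1, the sample with the least Itgam, the log2 fold change was -0.53. Itgam (ENSMUSG00000030786) spans 128062640 to 128118491 of chromosome 7, plus strand. Of its 5024 annotated exon bases, 3450 (68.7%) are also exon of Gm49368, a predicted protein-coding gene on the same strand. Gm49368 has counts of its own in the table, at 24.1, 30.6 and 25.3 CPM with Rb1 and 26.5, 32.6 and 28.5 CPM in controls (log2 fold change -0.088, SE 0.16, edgeR adjusted p = 0.884). With both counts added, a choice made after seeing the data, the sums were 40.3, 69.2 and 53.9 CPM with Rb1 and 66.8, 89.2 and 84.9 CPM in controls. These sums overlap between the groups, and the log2 fold change was -0.51 (SE 0.24).

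Itgal, the CD11a chain of LFA-1, was the least abundant of the subunits in controls and the 1 whose groups overlapped. Its level was 1.61, 0.838 and 0.948 FPKM in Rb1 replicates 1, 2 and 3, against 1.86, 2.22 and 1.11 FPKM in CTR replicates 1, 2 and 3. Rb1 replicate 1 was above CTR replicate 3. Means were 1.13 ± 0.418 FPKM with Rb1 and 1.73 ± 0.564 FPKM in controls (SD, n = 3 each). The log2 fold change was -0.58 (SE 0.31). The value was -0.35 without CTR replicate 2 and -0.86 without Rb1 replicate 1. In Itgal, the order of samples within each group was the order of the summed T and NK cell markers, which were 51.5, 16.6 and 25.8 CPM in Rb1 replicates 1, 2 and 3, against 50.5, 75.8 and 27.8 CPM in CTR replicates 1, 2 and 3. The summed B cell markers had the same order, at 16.8, 10.8 and 11.8 CPM with Rb1 and 17.8, 22.1 and 13.1 CPM in controls. All 15 T and NK cell markers had negative log2 fold changes (median -0.70, and -0.28 without CTR replicate 2 or -1.32 without Rb1 replicate 1). None of the 15 was at 0 in all samples. The part of either list in the Itgal values was not tested. Itgal (ENSMUSG00000030830) spans 127296260 to 127335138 of chromosome 7, plus strand, and no other gene overlaps its exons.

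Itgb2, the CD18 chain common to all 4 pairs, was the most abundant subunit and had the smallest SE of the 5. Its level was 19.3, 16.0 and 17.2 FPKM in Rb1 replicates 1, 2 and 3, against 36.0, 34.1 and 26.8 FPKM in CTR replicates 1, 2 and 3. The groups were separated by a gap larger than the whole Rb1 range. Means were 17.5 ± 1.64 FPKM with Rb1 and 32.3 ± 4.89 FPKM in controls (SD, n = 3 each). The log2 fold change was -0.84 (SE 0.12), and it ran from -0.94 to -0.78 when 1 sample was left out. Itgb2 (ENSMUSG00000000290) spans 77530252 to 77565708 of chromosome 10, plus strand, with exons overlapped by no other gene. Of the 5 subunits, 4 had every Rb1 sample below every control sample, in CPM as in FPKM, beside 10.5% of all genes tested. Without CTR replicate 2 the count of subunits was again 4. The background was then larger, at 2114 of the 14093 genes tested, against 1483 with all samples. All 5 had a negative log2 fold change, beside 48.7% of all genes tested. Since Itgax and Itgad were chosen on this contrast, nothing is read from these counts.

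**Figure D1:**
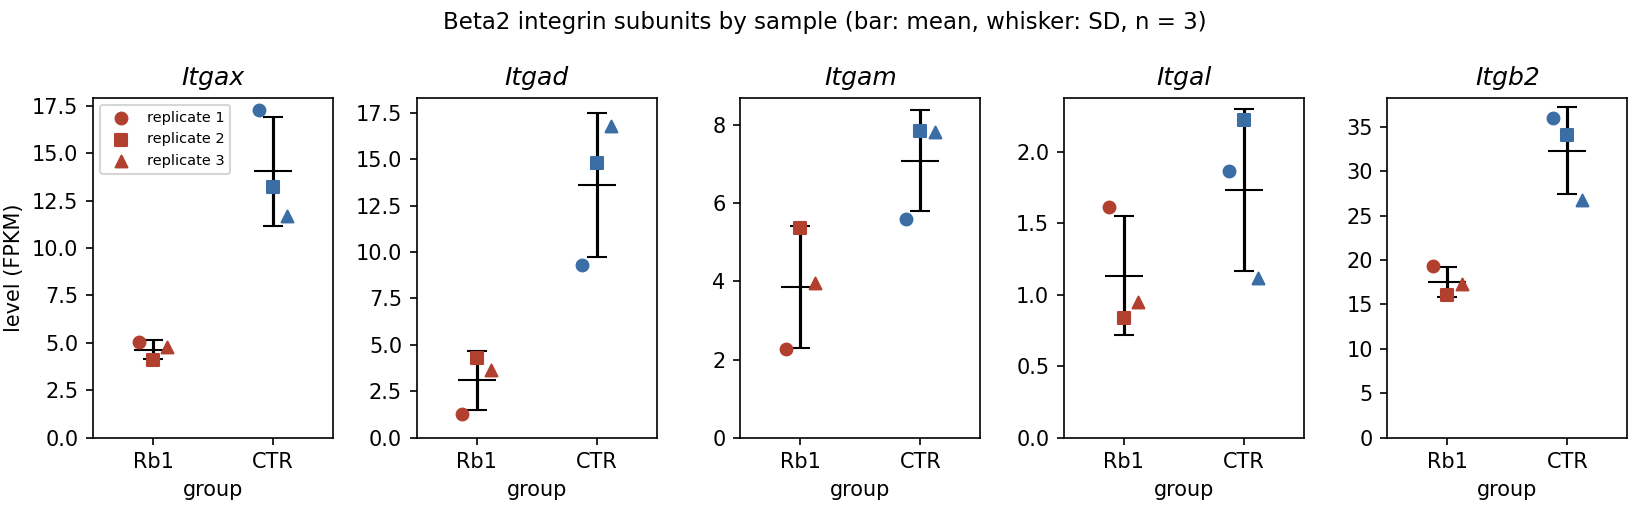
Level in FPKM (vertical axis, from 0, a separate scale for each gene) of the 5 subunits in the 3 Rb1 and 3 CTR samples, with the mean as a bar and the SD as whiskers. Itgax and Itgb2 form tight Rb1 groups below the controls, Itgad and Itgam are lowest in Rb1 replicate 1, and the Itgal groups overlap.

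Among the alpha chains, compared per length in FPKM, the order of levels differed between the groups. The lengths behind the deposited FPKM were 7207 bases for Itgam and 5197 for Itgad, against 5024 and 4510 annotated exon bases. Ranks and shares between genes depend on these lengths. In controls Itgax and Itgad were at the top and did not differ beyond their spread, Itgam was below both in each sample, and Itgal was lowest. Itgad was above Itgax in CTR replicates 2 and 3 and below it in CTR replicate 1. With Rb1, Itgax, Itgam and Itgad overlapped one another. Itgad ranked last of the 4 in Rb1 replicate 1, while Itgam ranked first in Rb1 replicate 2. Itgax made up 37.8 ± 10.9% of the summed alpha FPKM with Rb1 and 38.9 ± 10.4% in controls (SD, n = 3 each), with overlapping groups. Itgad made up 23.2 ± 9.28% with Rb1 and 37.0 ± 8.90% in controls. Itgam, whose count is uncertain as described above, made up 29.5 ± 7.32% with Rb1 and 19.3 ± 2.51% in controls. Itgal made up 9.55 ± 5.44% with Rb1 and 4.76 ± 1.55% in controls.

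The 4 alpha chains together stood at 10.2 to 14.6 FPKM with Rb1 and at 34.0 to 38.1 FPKM in controls. Set against Itgb2, their sum was 0.737 ± 0.193 times the Itgb2 level with Rb1 and 1.15 ± 0.229 times in controls (SD, n = 3 each). The highest Rb1 ratio, 0.910, was just under the lowest control ratio, 0.944. The log2 ratio of Itgax to Itgb2 was -1.74, -1.78 and -1.67 in Rb1 replicates 1, 2 and 3, against -0.87, -1.18 and -1.01 in CTR replicates 1, 2 and 3. Relative to its own beta chain, Itgax was lower in every Rb1 sample than in every control sample, by 0.71 on average (range 0.64 to 0.79 over samples left out in turn). For Itgad, the ratio was -3.74, -1.74 and -2.07 with Rb1, against -1.79, -1.05 and -0.51 in controls. Rb1 replicate 2 was level with CTR replicate 1 here, and the mean difference of -1.40 was -0.79 without Rb1 replicate 1. Itgam and Itgal gave mean differences of -0.071 and 0.26 with overlapping groups, which were 0.34 and 0.052 without Rb1 replicate 1. Itgax and Itgad, chosen as lower with Rb1 in these samples, made up 38.9% and 37.0% of the alpha sum in controls. So nothing is read from their ratios, from the alpha sum or from the shares of it.

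**Figure D2:**
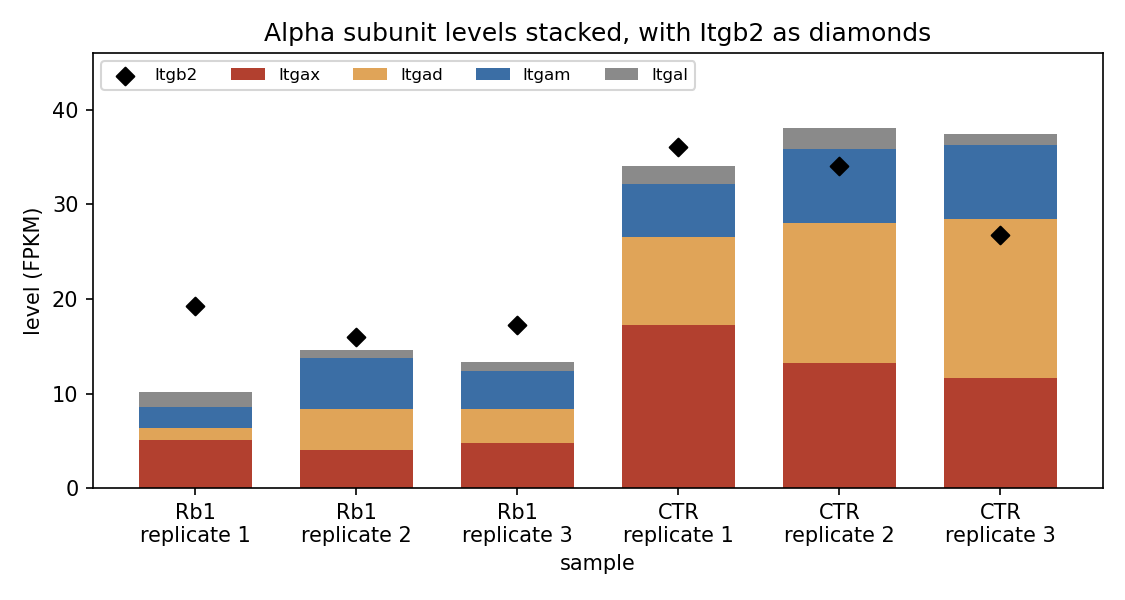
Level in FPKM (vertical axis, from 0) of the 4 alpha subunits stacked for each sample, with Itgb2 as a black diamond. The stacks reach 10.2 to 14.6 FPKM with Rb1, below the diamond in each sample, and 34.0 to 38.1 FPKM in controls, where CTR replicates 2 and 3 have the stack above the diamond.

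Markers of leukocytes were lower with Rb1 in the same samples. All 10 pan-leukocyte markers had negative log2 fold changes (median -0.65), 7 had every Rb1 sample below every control sample beside 10.5% of all genes tested, and their summed level was 468 to 534 CPM with Rb1 and 678 to 920 CPM in controls. Ptprc (CD45) stood at 65.6, 54.5 and 45.3 CPM with Rb1 and 95.7, 119 and 76.7 CPM in controls. Of these 10 genes, edgeR called 0 over all genes, 8 were lower with p unadjusted and under 0.05 (7.54% of all genes), while DESeq2 called 5 lower (2.08% of all genes). Macrophage markers summed to 1525 to 2376 CPM with Rb1 and 2545 to 3080 CPM in controls, with 12 of 15 negative (median -0.39, and -0.19 without Rb1 replicate 1). The 8 markers of lipid-associated macrophages, all negative (median -0.94), summed to 616 to 965 CPM with Rb1 and 1200 to 1697 CPM in controls. No marker of these 3 lists was at 0 in all samples, and their part in the integrin values was not tested. Of the 15 and 8 markers, edgeR called 0 of each, 7 and 6 were lower with p unadjusted and under 0.05, while DESeq2 called 3 and 5 lower.

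Relative to the mean of the 10 pan-leukocyte markers on the log2 scale, Itgax was -0.16, -0.39 and -0.048 in Rb1 replicates 1, 2 and 3, against 0.93, 0.42 and 0.72 in CTR replicates 1, 2 and 3. The groups did not overlap, and the difference was -0.89 (-1.02 to -0.77 over samples left out in turn). Itgad was -2.16, -0.35 and -0.45 with Rb1, against 0.016, 0.55 and 1.21 in controls, a difference of -1.58 that was -0.99 without Rb1 replicate 1. Both chains were chosen as lower with Rb1 in these samples, so nothing is read from their distance to the markers. Itgb2 differed by -0.18, Itgam by -0.25 and Itgal by 0.082 on the same scale, with overlapping groups, and Itgam and Itgal changed sign when Rb1 replicate 1 was left out. Against the 8 lipid-associated macrophage markers, Itgax was lower by a mean of -0.66 without overlap, while Itgad differed by -1.35 with overlap and Itgb2 by 0.053. Against the 15 macrophage markers, Itgax differed by -1.12, Itgad by -1.81 and Itgam by -0.48 without overlap, and Itgb2 differed by -0.41 and Itgal by -0.14 with overlap.

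**Figure D3:**
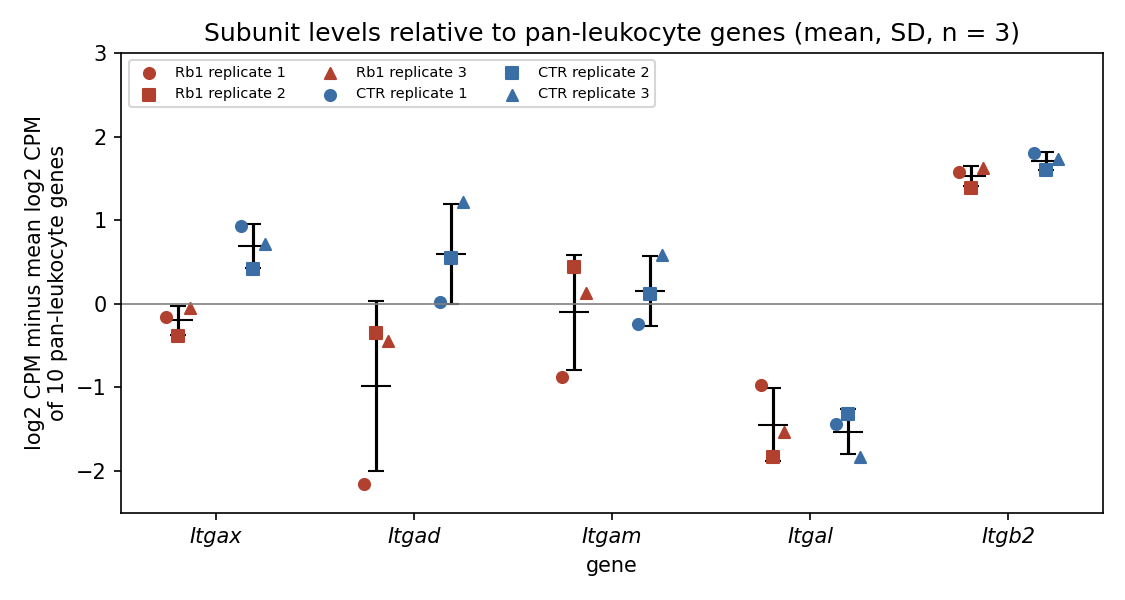
Log2 CPM of each subunit minus the mean log2 CPM of 10 pan-leukocyte markers in each sample (vertical axis), with mean and SD. Rb1 and CTR points are apart for Itgax and Itgad and overlap for Itgam, Itgal and Itgb2.

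Markers of other cells that carry these integrins differed among themselves. Monocyte markers were negative in 5 of 6 (median -0.42, and -0.26 without CTR replicate 2 or -0.69 without Rb1 replicate 1), with sums of 31.3 to 43.7 CPM with Rb1 and 47.3 to 67.1 CPM in controls. Dendritic cells also carry CD11c. Their 9 markers summed to 92.7 to 126 CPM with Rb1 and 92.7 to 111 CPM in controls, with 5 negative and 4 positive (median -0.52, and -0.19 without CTR replicate 1 or -0.30 without CTR replicate 2). Flt3, the receptor for the dendritic cell growth factor Flt3 ligand, was at 1.04, 1.36 and 1.47 CPM with Rb1 and 1.88, 3.32 and 1.93 CPM in controls. Zbtb46, a transcription factor of conventional dendritic cells and of endothelium, was at 28.8 to 41.7 CPM with Rb1 and 24.6 to 35.3 CPM in controls. Spic, a factor of the red pulp macrophages of the spleen, was at 0.712 to 1.14 CPM with Rb1 and 0.889 to 1.19 CPM in controls. The 4 markers of that cell type split evenly in sign. B cell markers (median -0.15, and -0.87 without Rb1 replicate 1 or 0.00067 without CTR replicate 2) summed to 10.8 to 16.8 CPM with Rb1 and 13.1 to 22.1 CPM in controls. Neutrophil markers summed to 7.92 to 18.3 CPM with Rb1 and 8.62 to 13.8 CPM in controls, and Ly6g, their defining surface marker, had 0 counts in all samples, which allows up to 0.122 to 0.194 CPM. Mast cell and eosinophil markers (median 0.05, and -0.39 without Rb1 replicate 2 or 0.31 without Rb1 replicate 1) summed to 45.4 to 120 CPM with Rb1 and 77.5 to 95.4 CPM in controls. The eosinophil peroxidase gene Epx was at 0 in all samples. Adipocyte markers had a median of 0.05. In edgeR, 0 genes of these lists or of the T and NK, adipocyte and muscle lists passed over all genes. With p unadjusted and under 0.05, 7.54% of all genes were lower and 4.01% higher. Lower at that threshold were 2 of 6 monocyte, 2 of 9 dendritic cell and 3 of 15 T and NK cell markers tested. So were 2 of 9 B cell, 1 of 7 mast cell and eosinophil and 8 of 10 muscle markers. The red pulp and adipocyte lists had 1 higher each, of 4 and 8 tested. DESeq2 called 1 muscle gene lower and 0 of the others, beside 2.08% of all genes lower.

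Outside-in signalling genes, which carry the signal from a bound integrin into the cell, leaned to lower values with Rb1. Of 18 tested, 17 had negative log2 fold changes, beside 48.7% of all genes tested. Their median was -0.56, and -0.33 without CTR replicate 2, against 0.0069 for all genes tested and -0.65 for the pan-leukocyte markers. How far leukocyte content enters these values was not tested. Over all genes edgeR called 0 in either direction. At an unadjusted p under 0.05, 10 were lower (7.54% of all genes), while DESeq2 called 8 lower (2.08% of all genes). Fgr, a Src family kinase of myeloid cells, stood at 5.29, 3.43 and 4.24 CPM with Rb1 and 10.6, 9.78 and 6.44 CPM in controls (log2 fold change -1.002, SE 0.23, edgeR adjusted p = 0.212). Tyrobp (DAP12), an adaptor that recruits the kinase Syk, was at -0.76 (SE 0.20, edgeR adjusted p = 0.254). Fcer1g, the second such adaptor and the member with the smallest p, was at -0.55 (SE 0.11, edgeR adjusted p = 0.195). Syk itself was at -0.30 and the scaffold Lcp2 (SLP-76) at -0.51, both with overlapping groups. Without CTR replicate 2, Syk was at -0.17 and Lcp2 at -0.26, and without Rb1 replicate 1 Syk was at -0.12.

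Inside-out activation genes, whose products switch integrins to the binding state, were mixed. Of 15 tested, 12 were negative with a median of -0.15, beside 48.7% of all genes negative, and edgeR called 0 over all genes. There were 3 lower with p unadjusted and under 0.05 (7.54% of all genes), while DESeq2 called 3 lower (2.08%). Fermt3 (kindlin-3), the blood cell kindlin that binds the beta tail, was at 19.5, 20.1 and 22.5 CPM with Rb1 and 38.3, 39.6 and 29.8 CPM in controls. Its log2 fold change was -0.75 (SE 0.14, edgeR adjusted p = 0.184). Apbb1ip (RIAM), which brings talin to the integrin, was at -0.58 (SE 0.13, edgeR adjusted p = 0.201). Talin itself is made in most cells, and Tln1 was at 0.19 (SE 0.14, edgeR adjusted p = 0.660). The small GTPase Rap1b was at -0.15, its exchange factor Rasgrp2 at 0.17 and its effector Rassf5 (RAPL) at -0.42, none of them past the test.

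Ligands of the family, which are made largely by endothelial and other stromal cells or circulate, were not lower as a list. Of 18 listed, 13 were tested, 8 positive and 5 negative, with a median of 0.13 (0.016 without Rb1 replicate 1 and 0.21 without CTR replicate 2). In edgeR 0 passed over all genes, and DESeq2 called 0. None had an unadjusted p below 0.05, beside 4.01% of all genes higher and 7.54% lower. Icam1, the inducible ligand of LFA-1 and Mac-1, was at 40.9, 29.5 and 28.4 CPM with Rb1 and 32.3, 33.8 and 26.5 CPM in controls (log2 fold change 0.13, SE 0.15, edgeR adjusted p = 0.802). Icam2, the constitutive endothelial ligand, was at 0.48 (SE 0.30, edgeR adjusted p = 0.608), with 33.5 CPM in Rb1 replicate 1 and 13.1 to 19.8 CPM in the other 5 samples, and was at 0.10 without Rb1 replicate 1. F11r (JAM-A) was at 0.29, Vcam1 at 0.14 and C3, the source of iC3b, at -0.019, all with overlapping groups. Icam4, the red cell ligand, had too few counts to be tested (at most 3 in a sample). Vtn (vitronectin) had the smallest p of the list, with a log2 fold change of 0.26 (SE 0.13, edgeR adjusted p = 0.521).

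Other integrin subunits gave a median of 0.078 over 21 tested genes, 13 positive and 8 negative. Their log2 fold changes ran from -1.42 to 0.70. Over all genes edgeR called 0, and DESeq2 called 0. With p unadjusted and under 0.05, 1 was higher (4.01% of all genes) and 3 were lower (7.54%). Itga4, the alpha4 chain of lymphocytes and monocytes, was the member with the smallest p, at 40.1, 41.2 and 35.9 CPM with Rb1 and 57.1, 74.4 and 45.4 CPM in controls (log2 fold change -0.55, SE 0.18, edgeR adjusted p = 0.320, and -0.34 without CTR replicate 2). Its beta partners Itgb7 (0.10) and Itgb1 (0.21) were on the other side of 0, and neither passed. Itgae, the CD103 chain, was at 0.042. Itgav was at -0.56 and Itgb5, a beta partner of Itgav, at -0.18. Itgb2l, a gene similar to Itgb2, had 0 counts in all samples. Among the partners of rolling and transmigration, Selplg, the selectin ligand of leukocytes, was at -0.73 (SE 0.18, edgeR adjusted p = 0.231). Cd44, the hyaluronan receptor, was at -0.70 (SE 0.13, edgeR adjusted p = 0.174), and the endothelial gene Pecam1 was at 0.26 (SE 0.20, edgeR adjusted p = 0.680). This list of 9 tested genes had a median of 0.086, and edgeR called 0 over all genes. Of the 9, 2 were lower with p unadjusted and under 0.05 (7.54% of all genes), and DESeq2 called 2 lower (2.08%).

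Transcription factors known for myeloid and integrin promoters were positive in 8 and negative in 5 of 13 tested genes. Their median was 0.059, and -0.037 without CTR replicate 2. Over all genes edgeR called 0. At an unadjusted p under 0.05, 5 were lower (7.54% of all genes) and 1 was higher (4.01%), while DESeq2 called 2 lower (2.08%). Spi1, which encodes PU.1, the factor that specifies myeloid cells, was at 22.4, 19.2 and 19.5 CPM with Rb1 and 44.6, 40.4 and 29.4 CPM in controls (log2 fold change -0.86, SE 0.15, edgeR adjusted p = 0.167). Irf8, a factor of monocytes and dendritic cells, was at 34.2, 23.1 and 24.4 CPM with Rb1 and 62.0, 59.5 and 41.6 CPM in controls (-0.96, SE 0.18, edgeR adjusted p = 0.174). Runx1 was at -0.63 (SE 0.19, edgeR adjusted p = 0.292) without overlap of the groups, Runx3 at -0.95 (SE 0.37, edgeR adjusted p = 0.403, and -0.59 without CTR replicate 2) with overlap, and Klf4 at 0.059 with overlap.

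**Figure D4:**
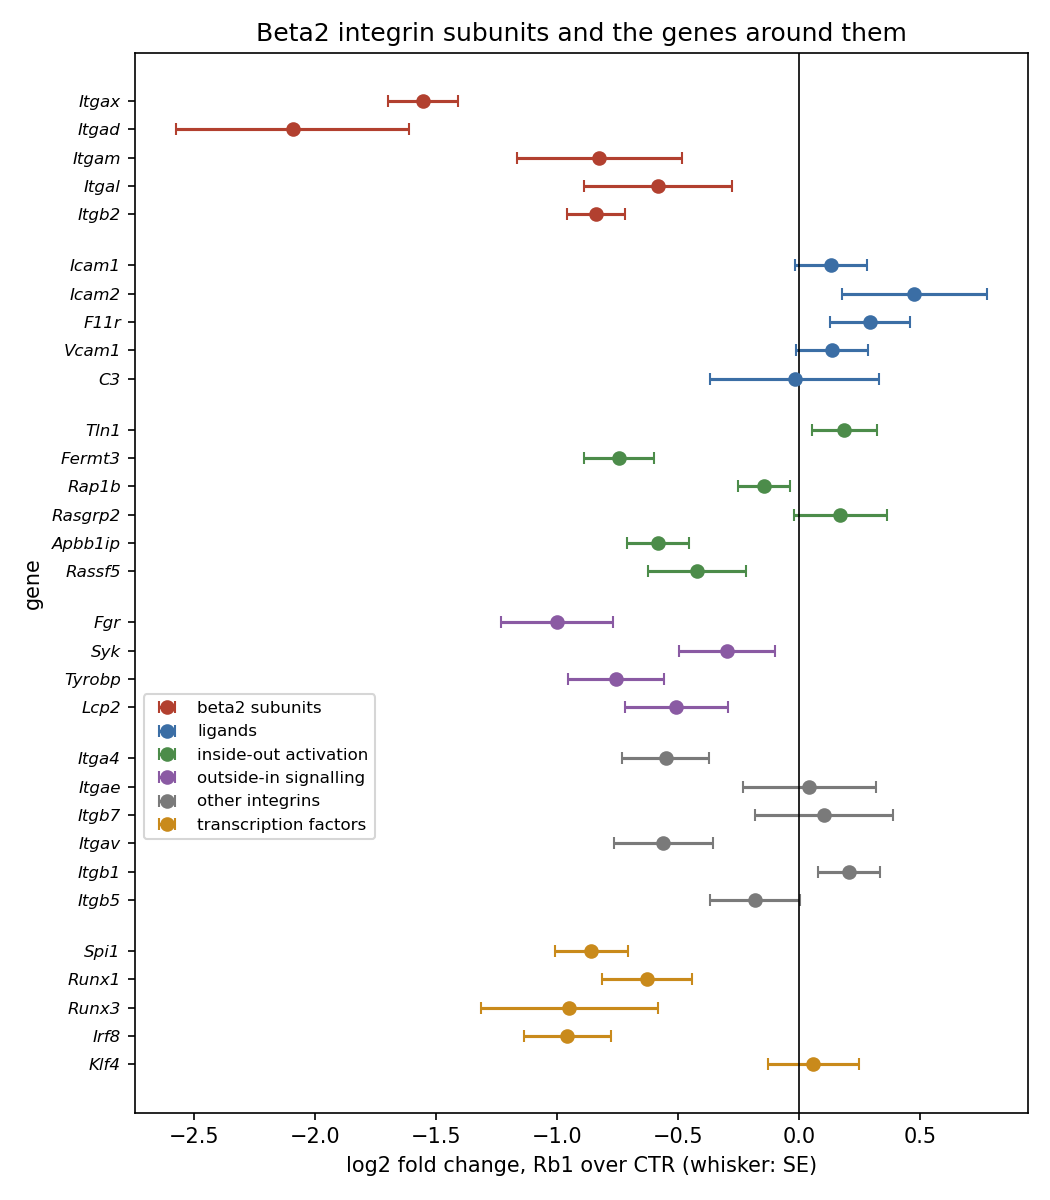
Log2 fold change of Rb1 over CTR (horizontal axis) with its SE for the 5 subunits and for genes fixed by list. The ligands shown lie from -0.019 to 0.48, and the lowest ligand tested was at -0.49. Fgr, Fermt3, Spi1 and Irf8 lie between -1.002 and -0.75, beside Itgb2 at -0.84. From the lists of Fermt3 and Spi1, Tln1, Rasgrp2 and Klf4 lie above 0, at 0.19, 0.17 and 0.059.

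Itgam, Itgax and Itgad lie in that order on the plus strand of chromosome 7. There are 11055 bases between Itgam and Itgax and 3718 between Itgax and Itgad. Gm49368, on the same strand, spans 128062683 to 128128160 and so covers part of the stretch between Itgam and Itgax. Itgal lies on the same chromosome, 727501 bases before Itgam. The neighbours did not share 1 direction. On the far side of Itgad, 9130023H24Rik was at 0.25, Armc5 at 0.0087 and Tgfb1i1, a cofactor of focal adhesions, at 0.27. Before Itgam, Pycard, the inflammasome adaptor ASC of myeloid cells, was at 6.92, 6.80 and 6.45 CPM with Rb1 and 12.4, 12.0 and 9.86 CPM in controls (-0.72, SE 0.14, edgeR adjusted p = 0.184). Trim72, a membrane repair protein of muscle, and Cox6a2 followed the muscle transcripts, with at most 0.791 CPM in Rb1 samples, at most 1.78 CPM in CTR replicates 1 and 3, and 24.9 and 31.3 CPM in CTR replicate 2. None of these 6 neighbours passed in edgeR, nor did Gm49368.

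**Figure D5:**
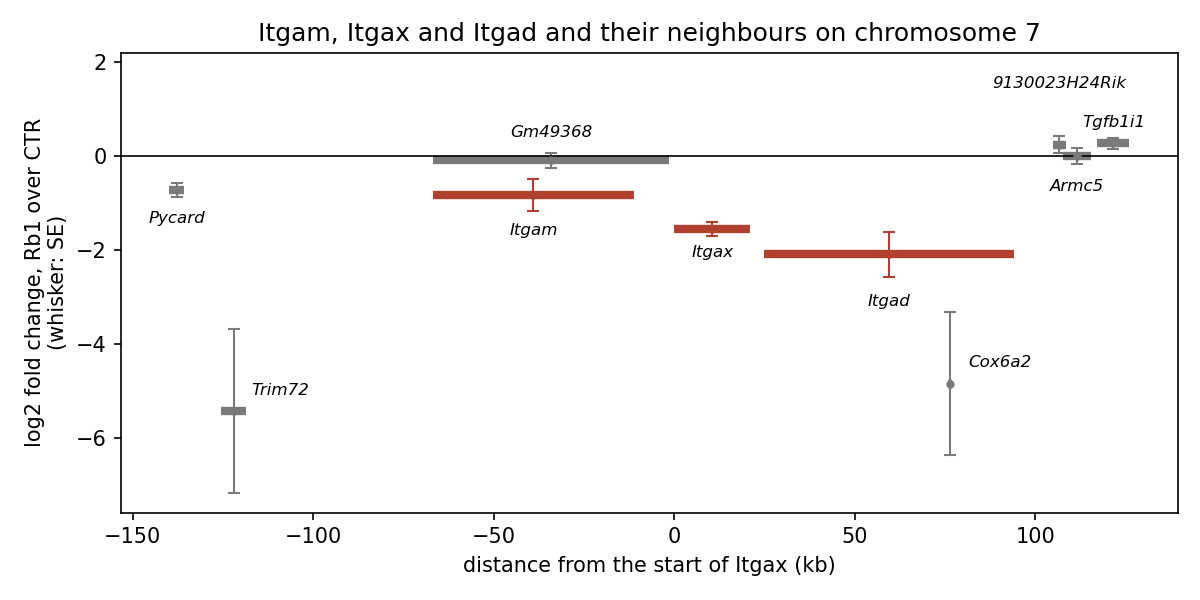
Log2 fold change of Rb1 over CTR (vertical axis) with its SE for Itgam, Itgax and Itgad (red) and neighbouring genes (grey), drawn at their extent along chromosome 7 as distance from the start of Itgax in kilobases. The 3 integrin genes lie at -0.83, -1.55 and -2.09, with Armc5 near 0 and the muscle genes Trim72 and Cox6a2 below all others.

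Promoter sequences from RefSeq on GRCm38.p6 were matched for 2 of the 5 subunits, Itgax and Itgam, and are shown because these are neighbouring genes of 1 family whose values differed. Each window holds 240 bases of the plus strand and ends 11 bases before the RefSeq start. The windows are chr7:128129300-128129539 for Itgax and chr7:128062390-128062629 for Itgam. Capitals mark the letters GAGGAA, taken for the PU.1 motif, and TGAGTCA, taken for the AP-1 motif, searched on both strands. The motifs were chosen after the sequences were seen and do not overlap.
Itgax: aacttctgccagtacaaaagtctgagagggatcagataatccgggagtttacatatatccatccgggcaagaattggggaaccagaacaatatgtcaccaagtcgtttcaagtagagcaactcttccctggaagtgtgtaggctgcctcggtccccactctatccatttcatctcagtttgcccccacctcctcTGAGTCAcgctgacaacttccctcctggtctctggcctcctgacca
Itgam: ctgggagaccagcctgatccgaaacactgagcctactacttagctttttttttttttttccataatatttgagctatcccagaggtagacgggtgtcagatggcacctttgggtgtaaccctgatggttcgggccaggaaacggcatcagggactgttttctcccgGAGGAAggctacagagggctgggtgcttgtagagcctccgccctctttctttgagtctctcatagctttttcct
The AP-1 letters occur once in the Itgax window, 56 bases before the start, and not in that of Itgam. The PU.1 letters occur once in the Itgam window, 84 bases before the start, and not in that of Itgax. Only the full string was searched, and the shorter GGAA within it occurs in both windows. Of 32851 promoter windows of the same length, 22.3% hold the PU.1 letters and 4.35% hold the AP-1 letters. A match describes letters in this window and not a site in use.

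The genes whose pattern over the 6 samples was closest to that of Itgax were found by the root mean square distance of centred log2 values, among 13347 genes that averaged 1 CPM or more. In order these were Il7r, the interleukin-7 receptor chain (0.088), Kntc1, a kinetochore protein (0.094), Rnf128, a ubiquitin ligase (0.11), Atf3, a stress-induced factor of the ATF family (0.13), and Hmmr, a hyaluronan-binding protein of dividing cells (0.15). The median distance to all genes compared was 0.82. Il7r was at 10.1, 8.03 and 9.02 CPM with Rb1 and 30.8, 24.2 and 19.5 CPM in controls, so it had the same order of control samples as Itgax. Atf3 was at 14.3, 10.9 and 11.3 CPM with Rb1 and 37.4, 36.0 and 28.7 CPM in controls. Fellow subunits were farther from Itgax, with Itgb2 at 0.37, Itgal at 0.59, Itgam at 0.64 and Itgad at 0.83. For Itgad the closest were Xlr3b (0.35), Myh15, a myosin heavy chain (0.45), Angptl8, a secreted regulator of lipoprotein lipase (0.53), Trp63, of the p53 family (0.57), and Cilp, a matrix protein (0.62), against a median of 1.31. The CPM of Xlr3b were 0.346, 1.42 and 2.04 with Rb1 and 4.34, 4.13 and 5.40 in controls. Kntc1 and Trp63 reached the limit of 1 CPM only through their control samples, at 2.38 to 3.76 and 2.63 to 2.98 CPM. With Rb1 they averaged 0.915 and 0.981 CPM, from 13 to 22 and 12 to 29 counts per sample. All distances rest on the same 6 libraries and include the difference between the groups, by which Itgax and Itgad were chosen. So nothing is read from which genes or subunits were near or far.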

How the data were processed

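RNA of mouse white adipose tissue was sequenced in 3 Rb1 and 3 CTR samples. Per the submitters' processing notes, CASAVA 1.8, TopHat2 2.0.6 and the build mm10 were used, while the sources used here name no counting tool, annotation, strand setting or filter. Per the file headers, the authors deposited raw counts for Ensembl genes and FPKM. Each FPKM matched its count scaled by 1 length per gene and by the column total, to within 0.00984% in 13169 genes, and served only for levels. Of 22040 identifiers, 21933 had a symbol, and coordinates came from GENCODE M21 on GRCm38.

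Counts were tested with edgeR 4.0.16 (R 4.3.3) with TMM, its default expression filter (minimum count 10, minimum total 15), no covariates and Benjamini-Hochberg adjustment at 0.05. SE came from the quasi-likelihood F statistic. The fit was tested on simulated data. All 5 subunits passed the filter. CPM used column totals, log2 values a pseudocount of 0.1, and a count of 0 allows up to 3 counts, for counting error only. Chi-square per degree of freedom between samples was at least 27.3, so all 6 counted as separate samples. DESeq2 1.42.0, RLE factors, no filter, a replicate block and leaving out each sample were alternatives.

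The subunits, lists and tests were chosen with earlier results of these data known. Named genes were the subunits, preset genes of 18 lists, the pathway gene of smallest p per list, the 5 genes closest to Itgax and to Itgad, and the 3 neighbours on each side of the chromosome 7 cluster with any inside it. A few genes that this rule takes are not reported here.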

Additional observations from a re-analysis of the deposited data

How the results depend on the processing

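The log2 fold changes of the 5 subunits and the ratios of Itgax and Itgad to Itgb2 stayed negative under each alternative run. With DESeq2, 80 genes were higher and 297 lower in all, and the counts lower were 3 for inside-out activation, 8 for outside-in signalling, 2 for rolling and transmigration, 2 for transcription factors, 5 for pan-leukocyte, 3 for macrophage, 5 for lipid-associated macrophage and 1 for muscle markers. Of 61 named genes outside the family, 23 passed with DESeq2 alone, beside 0.559% higher and 2.08% lower of all genes. Some were named for a small p or for closeness to Itgax or Itgad, so nothing is read from this count. The cause of the difference between edgeR and DESeq2 was not tested. Leaving out 1 sample gave 1 to 2 genes higher and 0 to 2 lower.

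Same-numbered samples did not deviate together (correlations 0.14, -0.11 and 0.017 for numbers 1, 2 and 3), so the numbers were not taken as pairs. The replicate block gave 1 gene higher and 0 lower, and medians of -0.097 for mast cell and eosinophil markers and -3.65 for muscle markers, with Cpa3 at -0.084.

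Over samples left out in turn, the Itgam to Itgb2 difference ran from -0.41 to 0.34, the Itgam and Itgal differences to pan-leukocyte markers from -0.52 to 0.14 and from -0.15 to 0.28. Medians ran from 0.016 to 0.21 (ligands), -0.18 to -0.085 (inside-out), -0.67 to -0.33 (outside-in), 0.0047 to 0.13 (rolling and transmigration), -0.085 to 0.19 (other integrins), -0.037 to 0.11 (transcription factors), -0.54 to -0.19 (macrophage), -0.14 to 0.30 (red pulp), -0.56 to -0.19 (dendritic cell), -0.69 to -0.26 (monocyte), -1.32 to -0.28 (T and NK cell), -0.87 to 0.00067 (B cell), -0.55 to 0.070 (neutrophil), -0.39 to 0.31 (mast cell and eosinophil), -0.022 to 0.16 (adipocyte) and -7.16 to -2.22 (muscle). Single genes that changed sign were Icam1 (-0.0042 to 0.21), C3 (-0.36 to 0.27), Itgae (-0.13 to 0.20), Itgb7 (-0.33 to 0.29), Klf4 (-0.15 to 0.17), Spic (-0.20 to 0.11), S100a8 (-1.36 to 0.12), Cpa3 (-0.36 to 0.72), Gm49368 (-0.22 to 0.019) and Armc5 (-0.15 to 0.14).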

Other observations

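The genes closest to the other 3 subunits lie outside the rule for named genes and were picked out after their values were seen. Closest to Itgb2 over the 6 samples was Spi1, at a root mean square distance of 0.056 in log2, followed by Nceh1, a cholesteryl ester hydrolase of macrophages (0.062), Ddx60, an interferon-induced helicase (0.068), Mapkapk3, a kinase downstream of p38 (0.071), and the Toll-like receptor gene Tlr6 (0.074). The median distance of Itgb2 to 13347 genes was 0.48. For Itgal the closest was P2ry10, a lysophospholipid receptor gene of lymphocytes (0.059), followed by Ier5, an immediate early gene (0.10), and Bcl3, a cofactor of NF-kappaB (0.11), against a median of 0.51. The closest gene to Itgam was Ugt3a2, a glycosyltransferase, at 0.18, against a median of 0.67. Itgal and Itgad were the pair of subunits farthest apart, at 1.27. These distances too include the difference between the groups, by which Itgad was chosen, so nothing is read from them.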
